A study of Mus musculus with 16 samples.

Results

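The phagocyte NADPH oxidase is described here through 5 of its subunit genes, Cybb, Cyba, Ncf1, Ncf4 and Rac2, chosen by symbol from a table of gene counts of mouse brain with 54532 entries. All 5 were in the table, and all 5 were among the 17736 genes left after a filter on low counts. RNA came from female mice aged 9 months, in 16 libraries. Of these, 8 were Ch25h+/+, 4 of them Tau- and 4 Tau+, and 8 were Ch25h-/-, divided in the same way. Ch25h encodes cholesterol 25-hydroxylase, which makes the oxysterol 25-hydroxycholesterol, and -/- marks mice without the gene. Tau+ is read as carrying a tau transgene. The labels give neither the transgene nor its promoter, and they do not say whether a library came from 1 animal, so p-values measure only the spread between these libraries. The sample labels name frontal cortex, whereas the series describes hippocampus. The summed level of 8 cortex markers was 715 to 943 CPM (counts scaled to library size) over the libraries, and that of 8 hippocampus markers was 205 to 372 CPM. These sums cover different genes and no reference tissue was compared, so they do not settle which tissue was used.

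The phagocyte oxidase moves electrons from NADPH inside the cell across a membrane to oxygen, which makes superoxide. The membrane part is a pair of proteins, gp91phox (Cybb), which carries the electrons, and p22phox (Cyba), which holds gp91phox stable and gives the cytosolic subunits a docking site. On activation the cytosolic subunits, among them the organizer p47phox (Ncf1) and the modulator p40phox (Ncf4), move to the membrane together with a Rac GTPase, Rac2 in blood cells or the widely expressed Rac1. In brain the complex is best known from microglia, and loss of a subunit in people causes chronic granulomatous disease. Transcription of several subunit genes in myeloid cells is known to depend on PU.1 (Spi1) and on interferon regulatory factors.

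The promoters of the subunit genes are shown because several members moved together in the comparisons below. Of the 5 members, 3 had an entry in the RefSeq promoter table (GRCm38.p6), and each window of 300 bases runs from 250 bases before the RefSeq start of the gene to 50 bases after it. Cybb lies at chrX:9469275-9469574 on the minus strand, Cyba at chr8:122432891-122433190 on the minus strand and Ncf1 at chr5:134229576-134229875 on the minus strand. For Cybb this start, base 9469324, is that of the transcript Cybb-201 in GENCODE M21, whereas the gene's extent in GENCODE begins 18447 bases further upstream, at base 9487771, with the transcript Cybb-205. The sequences run 5′ to 3′ on the gene's own strand, and capitals mark matches to 3 motifs, searched on both strands.
Cybb: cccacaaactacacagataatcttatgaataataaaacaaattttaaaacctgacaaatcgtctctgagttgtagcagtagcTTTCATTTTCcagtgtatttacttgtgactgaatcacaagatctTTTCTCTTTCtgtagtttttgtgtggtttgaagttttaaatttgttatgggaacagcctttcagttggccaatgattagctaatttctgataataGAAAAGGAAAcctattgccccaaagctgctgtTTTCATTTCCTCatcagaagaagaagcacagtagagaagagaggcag
Cyba: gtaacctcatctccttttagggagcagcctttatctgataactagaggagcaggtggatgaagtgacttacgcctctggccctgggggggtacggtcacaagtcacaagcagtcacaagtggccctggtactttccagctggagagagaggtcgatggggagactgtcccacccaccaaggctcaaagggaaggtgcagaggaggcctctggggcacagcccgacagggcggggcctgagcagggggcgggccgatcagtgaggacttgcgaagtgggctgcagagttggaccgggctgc
Ncf1: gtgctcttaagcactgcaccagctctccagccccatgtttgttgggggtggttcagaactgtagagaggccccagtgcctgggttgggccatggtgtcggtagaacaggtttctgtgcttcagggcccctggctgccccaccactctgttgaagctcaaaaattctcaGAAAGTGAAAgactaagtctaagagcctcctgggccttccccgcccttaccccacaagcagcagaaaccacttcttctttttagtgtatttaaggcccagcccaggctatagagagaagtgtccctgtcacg
The first motif was the core of the PU.1 site, GAGGAA, which 28.3% of all 32851 promoter windows held. The second was the composite of an Ets and an interferon regulatory factor site, GGAA followed after any 2 bases by GAAA, held by 2.72%. The third was the core of the interferon-stimulated response element, GAAA followed after any 2 bases by GAAA, held by 3.44%. The Cybb window had matches to all 3. Its composite match, at bases 254 to 263 on the opposite strand, overlapped a PU.1 core match at bases 260 to 265, and its response element matches lay at bases 83 to 92, 127 to 136 and 222 to 231. The Ncf1 window had 1 response element match, at bases 169 to 178, and the Cyba window had none of these letters. A match is a description of the sequence and no evidence of binding.

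Depth was 15530352 to 25602500 counts per library. Ch25h, the check of the genotype labels, had 5 to 30 counts in the 8 Ch25h+/+ libraries and 0 in the 8 Ch25h-/- libraries. A ribosomal RNA transcript, CT010467.1, took 2289 to 5684 CPM of total counts in 7 Ch25h-/- libraries and 111 to 475 CPM in the other 9, which include Ch25h-/- Tau+ replicate 1. No label names this split, and since all Ch25h+/+ libraries were on 1 side of it, it can be told apart from Ch25h genotype only through that 1 library. The members had few counts: 6 to 56 for Ncf4, 10 to 185 for Cybb, 30 to 113 for Rac2, 48 to 292 for Cyba and 75 to 191 for Ncf1. Counting error alone gives 6 counts a 95% exact Poisson interval of 2.20 to 13.1, and 185 counts one of 159 to 214.

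Transcripts of the subunits were highest in Ch25h+/+ Tau+, and the other 3 groups lay close together. In mice with Ch25h, tau was accompanied by more Cybb (5.54-fold), Ncf4 (2.82-fold), Cyba (2.49-fold) and Rac2 (1.94-fold), while Ncf1 (1.38-fold) did not pass the threshold. Of all genes, 1.47% were called higher in this comparison. With a library omitted the count of members was 2 to 4, and Ncf4 lost its call in 12 of 16 fits. In mice without Ch25h no member passed for tau, where 0.0395% of all genes were called. But the test of the difference between the tau effects passed for 0 of 5 members (interaction, edgeR adjusted p 0.322 to 0.99996), where 0.0338% of all genes were called. With so few calls over all genes, these counts say little about the members. Where tau was present, the same 4 genes were lower without Ch25h, a count that fell to 0 when the fit held a term for libraries rich or poor in ribosomal RNA. Over all 17736 genes that fit called 10 where the fit without the term called 629, and the log2 fold change of Cybb was -2.33 against -2.39. The estimate with the term rests on 1 Ch25h-/- library, and the part of the split in this difference was not tested. Without the term, 2.4% of all genes were called lower. The count of members fell to 2 with GC-corrected offsets, with only the 8 libraries compared, and on leaving out any 1 of 4 libraries named below.

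Cybb, the catalytic subunit (chrX:9435252-9487771, GENCODE M21, GRCm38), was 1.60, 5.13, 5.02 and 8.64 CPM in replicates 1 to 4 of Ch25h+/+ Tau+. It was 1.02, 0.930, 1.21 and 0.504 CPM in Ch25h+/+ Tau-, 0.783, 0.588, 0.723 and 0.948 CPM in Ch25h-/- Tau- and 1.02, 1.10, 0.966 and 0.812 CPM in Ch25h-/- Tau+. All 4 Ch25h+/+ Tau+ libraries lay above all 12 others, with replicate 1 only just above them, and the other 3 groups overlapped. The means were 5.10 ± 2.87, 0.915 ± 0.298, 0.761 ± 0.149 and 0.975 ± 0.123 CPM (SD, n = 4) in the same order.

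Cyba, the partner that stabilizes Cybb in the membrane (chr8:122424776-122432930), was 13.8, 8.50, 8.41 and 13.6 CPM in Ch25h+/+ Tau+. It was 3.88, 4.21, 4.70 and 4.99 CPM in Ch25h+/+ Tau-, 4.04, 3.59, 3.37 and 2.68 CPM in Ch25h-/- Tau- and 4.50, 4.87, 4.09 and 3.87 CPM in Ch25h-/- Tau+. The 4 libraries of Ch25h+/+ Tau+ again lay above all others. Replicate 1 of that group, the lowest of its group for Cybb, was the highest for Cyba. The group means were 11.1 ± 3.04, 4.45 ± 0.495, 3.42 ± 0.566 and 4.33 ± 0.444 CPM (SD, n = 4).

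Ncf1, the organizer (chr5:134220053-134229625), varied least between groups. It was 7.33, 7.91, 8.88 and 8.59 CPM in Ch25h+/+ Tau+, 6.28, 4.65, 4.66 and 8.11 CPM in Ch25h+/+ Tau-, 6.45, 6.65, 4.52 and 7.36 CPM in Ch25h-/- Tau- and 3.56, 6.82, 6.65 and 5.37 CPM in Ch25h-/- Tau+. Replicate 4 of Ch25h+/+ Tau- reached into the range of Ch25h+/+ Tau+, and the lowest value of all came from Ch25h-/- Tau+ replicate 1. Ncf1 shares 408 exonic bases with Gtf2ird2 on the other strand, and the use of strand in counting is not stated, so its level is uncertain. Gtf2ird2 had group means of 22.6 to 24.5 CPM and passed in none of the 5 comparisons (edgeR quasi-likelihood test, Benjamini-Hochberg adjusted p 0.725 to 0.99998).

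Ncf4, the modulator (chr15:78244801-78262580), was 2.22, 1.94, 2.09 and 2.61 CPM in Ch25h+/+ Tau+. It was 0.739, 0.547, 0.820 and 1.01 CPM in Ch25h+/+ Tau-, 1.02, 0.706, 1.27 and 0.335 CPM in Ch25h-/- Tau- and 0.822, 1.49, 0.341 and 0.562 CPM in Ch25h-/- Tau+. Its Ch25h+/+ Tau+ libraries lay above the rest, and the Ch25h-/- libraries spread most, with as few as 6 counts.

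Rac2, the GTPase of blood cells (chr15:78559167-78572783), was 4.68, 3.41, 4.70 and 5.28 CPM in Ch25h+/+ Tau+. It was 2.63, 2.13, 2.98 and 1.51 CPM in Ch25h+/+ Tau-, 2.47, 1.76, 2.95 and 2.23 CPM in Ch25h-/- Tau- and 2.11, 2.79, 2.44 and 2.12 CPM in Ch25h-/- Tau+. Its means in the last 3 groups, 2.31 ± 0.637, 2.35 ± 0.495 and 2.37 ± 0.323 CPM (SD, n = 4), differed by less than their spread.

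**Figure D1:**
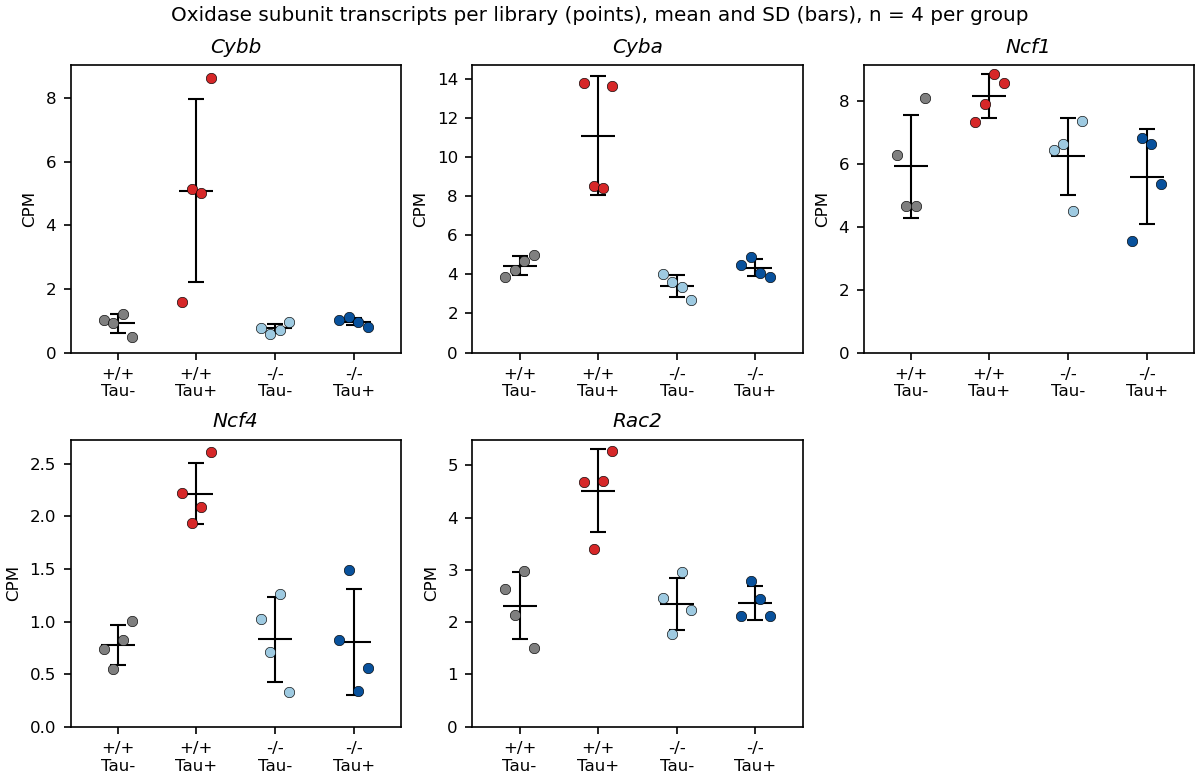
CPM (y axis) of the 5 subunit genes in the 4 groups (x axis), with 1 point per library and bars for the mean and SD of 4 libraries. Cybb, Cyba, Ncf4 and Rac2 are above all other libraries in Ch25h+/+ Tau+, and for Cybb the lowest of these 4 libraries is at 1.60 CPM against 8.64 in the highest.

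Per kilobase of exon, the order of the members in Ch25h+/+ Tau- was Cyba (4.28 ± 0.476 RPKM, which is CPM over exon length in kilobases, SD, n = 4), Ncf1 (1.62 ± 0.450), Rac2 (0.746 ± 0.205), Ncf4 (0.385 ± 0.0945) and Cybb (0.157 ± 0.0512). Of the neighbours in this order, Rac2 and Ncf4 overlapped in their libraries and the others did not. In Ch25h+/+ Tau+ the order was Cyba (10.7 ± 2.92 RPKM, SD, n = 4), Ncf1 (2.23 ± 0.190), Rac2 (1.46 ± 0.254), Ncf4 (1.10 ± 0.144) and Cybb (0.878 ± 0.495), where Rac2 overlapped Ncf4 and Ncf4 overlapped Cybb. The level per kilobase of Cybb relative to Cyba was 0.0181 to 0.0469 in Ch25h+/+ Tau-. In Ch25h+/+ Tau+ it was 0.108, 0.107 and 0.113 in replicates 2 to 4 and 0.0208 in replicate 1. In Ch25h-/- it was 0.0293 to 0.0634 in Tau- and 0.0375 to 0.0422 in Tau+.

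Rac2 relative to its widely expressed relative Rac1 was 0.0174 to 0.0281 per kilobase in Ch25h+/+ Tau+ and 0.00937 to 0.0149 in the matching Tau- libraries. Without Ch25h the ratio was 0.00944 to 0.0166 (Tau-) and 0.0115 to 0.0138 (Tau+). The Ch25h+/+ Tau+ range did not overlap the other 3. Rac1 shares 2309 exonic bases with Daglb on the other strand, so its level is uncertain. Ncf4 relative to Ncf1 was 0.427 to 0.552 in Ch25h+/+ Tau+, above the 0.213 to 0.319 of its Tau- counterpart, and the Ch25h-/- libraries, at 0.0824 to 0.508, overlapped both.

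**Figure D2:**
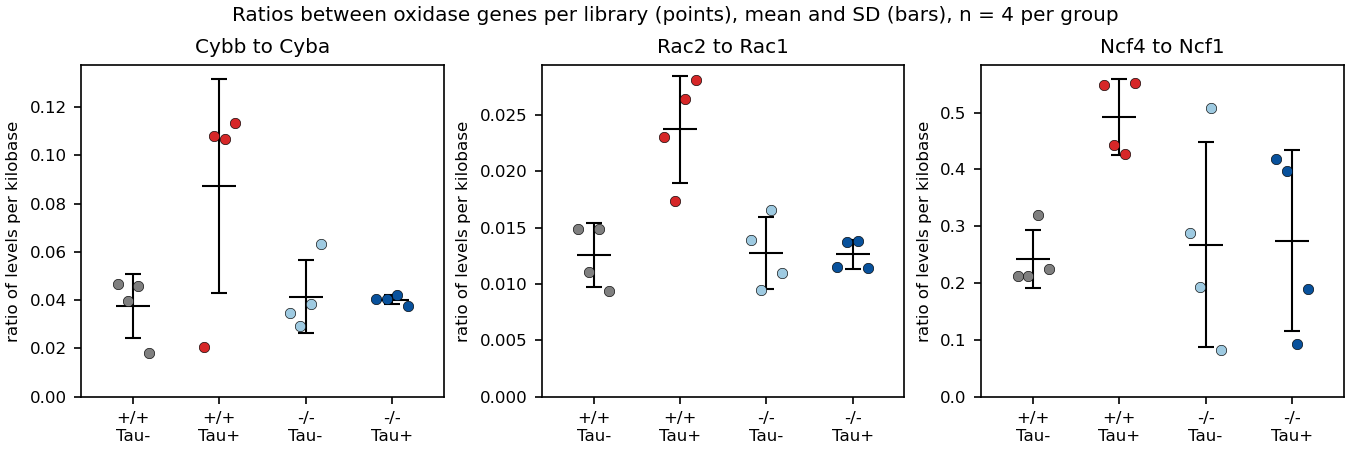
Ratio of the levels per kilobase (y axes) of Cybb to Cyba, Rac2 to Rac1 and Ncf4 to Ncf1 in the 4 groups (x axes), with 1 point per library and bars for the mean and SD of 4 libraries. For Cybb to Cyba, 3 libraries of Ch25h+/+ Tau+ lie at 0.107 to 0.113 and the remaining one at 0.0208.

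The tau effect in Ch25h+/+ asks how tau changes the oxidase where the sterol enzyme is present. Of the 5 members 4 rose (adjusted p under 0.05, edgeR quasi-likelihood test, Benjamini-Hochberg over all genes), where 1.47% of all genes tested were called higher. The log2 fold change was 2.47 for Cybb (standard error 0.37, adjusted p 0.000907), 1.31 for Cyba (0.18, 0.000450), 1.50 for Ncf4 (0.37, 0.0482) and 0.95 for Rac2 (0.21, 0.0250). Ncf1 had 0.47 (95% interval 0.02 to 0.91, adjusted p 0.489). The groups did not overlap for those 4, as for 3.89% of all genes in this direction. The median over the 5 members was 1.31, against -0.01 over all genes tested.

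The calls differed in how firmly they stood. Cybb kept its call whichever of the 16 libraries was omitted, with a log2 fold change of 2.10 to 2.77 and adjusted p of 1.28e-05 to 0.00586, and so did Cyba, with 1.20 to 1.44 and 0.000343 to 0.00345. Ncf4 lost its call in 12 of these 16 fits and Rac2 in 5, and 2 members passed when the fit lacked Ch25h+/+ Tau- replicate 1, 2 or 4, or Ch25h+/+ Tau+ replicate 3 or 4. Ncf4 also missed the threshold with GC-corrected offsets (adjusted p 0.0549) and with the ribosomal RNA split as a term (0.0625), and Rac2 with only the 8 libraries compared (0.0871).

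The tau effect in Ch25h-/- gave 0 of 5 members past the threshold with edgeR, with DESeq2 and with limma-voom, and 0 at an unadjusted p under 0.05, a level that 3.68% of all genes reached. After adjustment, 0.0395% of all genes were called in this comparison. The log2 fold changes were 0.35 for Cybb (95% interval -0.54 to 1.25), 0.34 for Cyba (-0.06 to 0.75), -0.17 for Ncf1 (-0.62 to 0.29), -0.05 for Ncf4 (-0.91 to 0.80) and 0.004 for Rac2 (-0.47 to 0.48). The interval of Cybb reached up to 1.25, and its estimate in Ch25h+/+ mice was 2.47 (standard error 0.37). Setting these side by side is no test of a difference, which only the interaction gives.

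The interaction, which tests whether the tau effect differs between the Ch25h genotypes, passed for 0 of 5 members with edgeR, DESeq2 and limma-voom. All 5 had an unadjusted p under 0.05, as did 4.13% of all genes, and all 5 estimates were below 0, while 0.0338% of all genes were called after adjustment. The estimates on the log2 scale were -2.12 for Cybb (standard error 0.56, adjusted p 0.322), -1.55 for Ncf4 (0.55, 0.793), -0.97 for Cyba (0.26, 0.348), -0.95 for Rac2 (0.31, 0.627) and -0.63 for Ncf1 (0.30, 0.99996). Cybb passed in 1 fit, without Ch25h+/+ Tau+ replicate 1 (log2 estimate -2.42, adjusted p 0.0237), and the adjusted p of its 16 fits ran from 0.0237 to 0.635. A smaller tau effect without Ch25h is therefore not shown for any single member at this threshold with all libraries.

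Ch25h loss in Tau+ asks how the oxidase differs without the enzyme when tau is present. It shares the Ch25h+/+ Tau+ libraries with the tau effect above, so the 2 comparisons are not independent. Of the 5 members 4 fell, where 2.40% of all genes were called lower. The log2 fold change was -2.39 for Cybb (standard error 0.37, adjusted p 0.00191), -1.35 for Cyba (0.18, 0.000708), -1.46 for Ncf4 (0.37, 0.0399) and -0.93 for Rac2 (0.22, 0.0292), and -0.56 for Ncf1 (0.21, 0.125). The groups did not overlap for any of the 5, Ncf1 included, as for 5.74% of all genes in this direction. The median over the members was -1.35 against 0.004 over all genes.

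Cybb and Cyba kept these calls whichever library was omitted (adjusted p 3.70e-05 to 0.0134 and 0.000496 to 0.00601). Ncf4 lost its call in 7 of them and Rac2 in 4, and 2 members passed when the fit lacked Ch25h+/+ Tau+ replicate 1 or 4, or Ch25h-/- Tau+ replicate 3 or 4. Both also missed the threshold with GC-corrected offsets (adjusted p 0.0978 for Ncf4 and 0.0648 for Rac2) and with only the 8 libraries compared (0.0942 and 0.0550). With the ribosomal RNA split as a term the count was 0, where 10 of all 17736 genes were called against 629 without it, with log2 fold changes of -2.33 for Cybb, -1.30 for Cyba, -1.42 for Ncf4 and -1.09 for Rac2 (adjusted p 0.306 to 0.976), an estimate that rests on 1 Ch25h-/- library. That library, Ch25h-/- Tau+ replicate 1, had 1.02 CPM of Cybb, 4.50 of Cyba, 0.822 of Ncf4 and 2.11 of Rac2. Each was below all 4 Ch25h+/+ Tau+ libraries, which are on the same side of the split. With 1 such library, the part of the split in these differences was not tested.

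Ch25h loss in Tau- gave 0 of 5 members past the threshold with edgeR, DESeq2 and limma-voom and 0 at an unadjusted p under 0.05, where 20.9% of all genes had one and 1.03% (182 genes) were called with edgeR. DESeq2 called 1048 of the 17736 genes and limma-voom 1388, and with a library omitted edgeR called 4 to 1295. The estimates were -0.27 for Cybb (95% interval -1.16 to 0.62), -0.38 for Cyba (-0.78 to 0.02), 0.08 for Ncf1 (-0.37 to 0.53), 0.08 for Ncf4 (-0.76 to 0.93) and 0.02 for Rac2 (-0.45 to 0.49). All 4 Ch25h-/- Tau- libraries were rich in ribosomal RNA and all 4 Ch25h+/+ Tau- libraries poor in it, so the split and the genotype cannot be told apart within this comparison. With the split as a term, estimated through Ch25h-/- Tau+ replicate 1, Ncf1 was -0.74, outside its interval above, and Rac2 was -0.20.

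**Figure D3:**
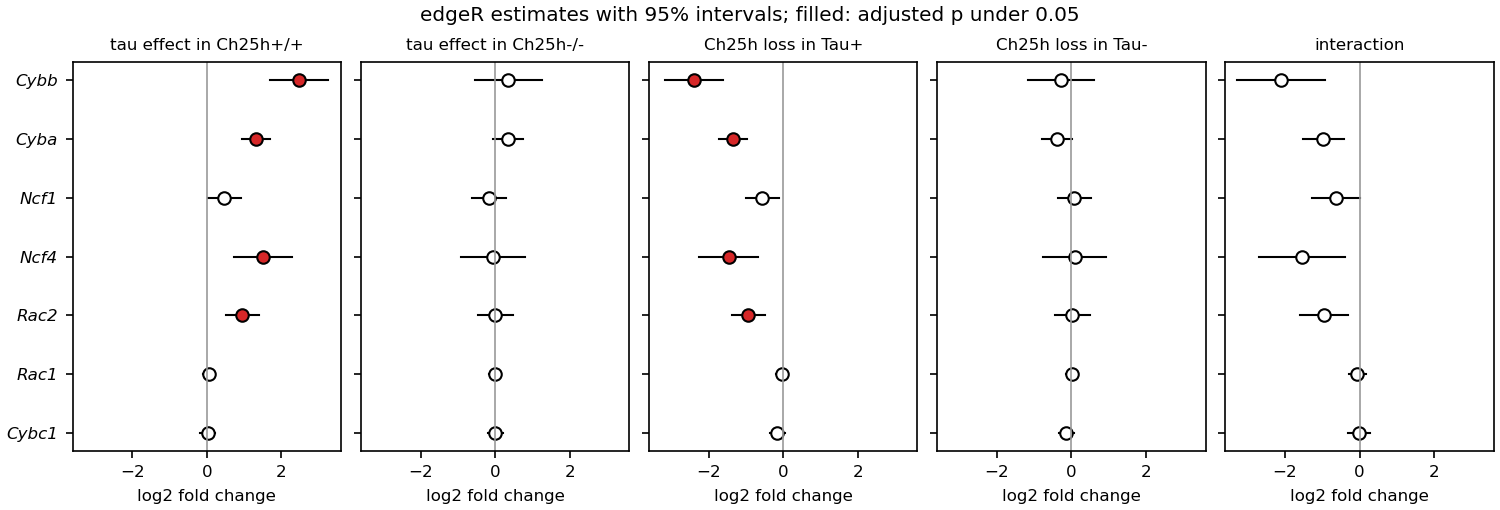
log2 fold changes (x axes) of the 5 subunit genes, Rac1 and Cybc1 (rows) in the 5 comparisons, with 95% intervals, filled where the adjusted p was under 0.05. Cybb has the largest estimates of these genes for tau in Ch25h+/+ mice (2.47) and for Ch25h loss in Tau+ mice (-2.39), and no point is filled for the tau effect in Ch25h-/-, Ch25h loss in Tau- or the interaction.

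In bulk tissue, fewer cells of a type and less RNA per cell cannot be told apart. The summed level of 10 microglial markers was 407 to 520 CPM in Ch25h+/+ Tau+, above the 323 to 350 CPM of the Tau- libraries with Ch25h. Without Ch25h it was 312 to 351 CPM (Tau-) and 322 to 389 CPM (Tau+). Of these 10 markers 3 rose for tau in Ch25h+/+, Csf1r and Cx3cr1 among them, and 4 fell for Ch25h loss in Tau+, among them Csf1r, Cx3cr1 and Tmem119. Of the same 10 markers, 2 had estimates above 0 for Ch25h loss in Tau+ (log2 fold change 0.23 for P2ry12 and 0.21 for Siglech, adjusted p 0.290 and 0.416, edgeR). Csf1r, Cx3cr1 and Tmem119 lost this call with the ribosomal RNA split as a term, and with a library omitted they kept it in 16, 6 and 12 of 16 fits. Cx3cr1 and Tmem119 also lost it with GC-corrected offsets and with only the 8 libraries compared, and Cx3cr1 with 1 surrogate variable. The tau call of Cx3cr1 was kept in 11 of 16 fits and lost with only the 8 libraries compared. On the log2(CPM + 0.5) scale, which understates changes of genes with low counts such as Cybb and Ncf4, the mean of the markers differed by 0.38 for tau in Ch25h+/+ and by -0.27 for Ch25h loss in Tau+.

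Each member was therefore also read relative to that mean, in log2 units and with no test. For tau in Ch25h+/+ the relative level differed by 1.45 for Cybb, 0.82 for Cyba, 0.71 for Ncf4, 0.47 for Rac2 and 0.08 for Ncf1. For Ch25h loss in Tau+ it differed by -1.48, -0.95, -0.85, -0.53 and -0.27. For Cybb the relative level ran from -3.82 to -1.90 in Ch25h+/+ Tau+, just above the -4.55 to -3.90 of its Tau- counterpart. For Cyba the ranges were -1.80 to -1.05 and -2.48 to -2.10, and for Ncf4 -3.61 to -3.45 and -4.41 to -3.96, again apart. Those of Rac2, -2.93 to -2.52 and -3.55 to -2.87, overlapped, as did those of Ncf1, -1.92 to -1.72 and -2.31 to -1.45. With the 3 markers past the threshold left out, the differences for tau were 0.17 to 1.54 over the 5 members. These 3 markers had risen in the same comparison, so larger differences follow from leaving them out and are no separate check.

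**Figure D4:**
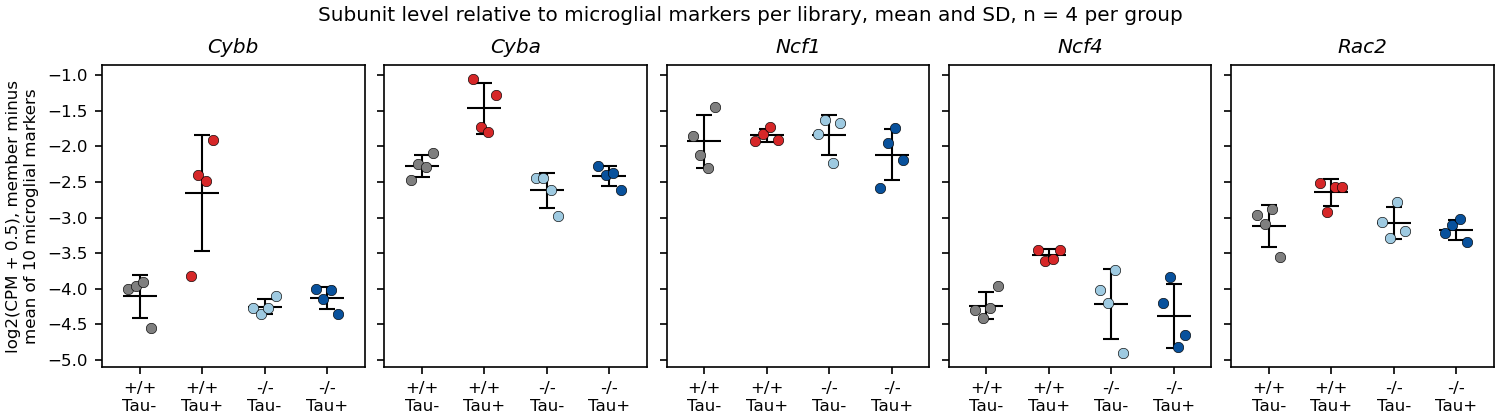
Level of each member relative to the mean of 10 microglial markers (y axes, difference of log2(CPM + 0.5)) in the 4 groups (x axes), with 1 point per library and bars for the mean and SD of 4 libraries. Cyba and Ncf4 are separate between Ch25h+/+ Tau+ and Ch25h+/+ Tau-, while Ncf1 overlaps in all 4 groups.

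Other cells that carry the oxidase were checked through their markers. The 11 neutrophil markers summed to 0.558 to 2.90 CPM in Ch25h+/+ Tau+, against 0.554 to 2.73 CPM in its Tau- counterpart. Without Ch25h the sums were 1.33 to 2.9999 CPM (Tau-) and 0.704 to 2.53 CPM (Tau+). The neutrophil surface marker Ly6g had 0 counts in all libraries of Ch25h+/+ Tau+ and of Ch25h-/- Tau-. Another, Cxcr2, had counts in all 4 libraries of Ch25h+/+ Tau+ (0.0421 to 0.185 CPM, mean 0.0800), means of 0.0223 CPM in the matching Tau- group and 0.0151 CPM in Ch25h-/- Tau-, and 0 counts in Ch25h-/- Tau+. The part of neutrophils was not tested. The 5 monocyte markers summed to 0.607 to 1.01 CPM in Ch25h+/+ Tau+ and 0.353 to 0.690 CPM in its Tau- group, and without Ch25h to 0.176 to 1.33 CPM (Tau-) and 0.117 to 1.17 CPM (Tau+). The 4 B cell markers summed to 0.505 to 1.42 CPM in Ch25h+/+ Tau+ and 0.273 to 0.561 CPM in its Tau- group, and without Ch25h to 0.121 to 0.723 CPM (Tau-) and 0.313 to 1.12 CPM (Tau+). The 6 border macrophage markers summed to 11.6 to 20.6 CPM in Ch25h+/+ Tau+ and to 5.79 to 14.1 CPM in its Tau- group, and without Ch25h to 7.11 to 16.4 CPM (Tau-) and 8.12 to 14.8 CPM (Tau+). None of these 6 passed the threshold in any comparison with edgeR, though for tau in Ch25h+/+ all 6 had estimates above 0, with a median log2 fold change of 0.67 beside 0.39 for the microglial markers and -0.01 for all genes. The T cell markers summed to 9.00 to 14.7 CPM in Ch25h+/+ Tau+ and 6.20 to 12.8 CPM in the other groups, most of it Trbc2. The T cell markers that could be tested, Cd4 and Trbc2, went opposite ways for tau in Ch25h+/+, and neither passed. Cd4 had a log2 fold change of -1.04 (edgeR adjusted p 0.164), with means of 1.64 CPM in Tau- and 0.796 CPM in Tau+. Trbc2 had 0.19 (adjusted p 0.914). The less abundant Cd3e, Cd3g, Cd3d and Cd8a had too few counts to be tested, and their means were highest in Ch25h+/+ Tau+. There the means were 0.208 CPM for Cd3e, 0.149 for Cd3g, 0.111 for Cd3d and 0.217 for Cd8a, against at most 0.125, 0.0643, 0.0263 and 0.0612 in any other group, and Cd3d had 0 counts in all 8 Ch25h-/- libraries. The part of monocytes, B cells, border macrophages and T cells in the subunit values was not tested.

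The other genes of the oxidase system were read in 5 lists. Of the assembly factors Rac1, Rap1a and Cybc1, 0 of 3 passed in any of the 5 comparisons with edgeR, and the list medians were 0.07 for tau in Ch25h+/+ and -0.03 for Ch25h loss in Tau+. Rac1 had log2 fold changes of 0.07 for tau in Ch25h+/+ and -0.03 for Ch25h loss in Tau+, and Cybc1, a chaperone that Cybb and Cyba need, had 0.02 and -0.15, none past the threshold. Rac1 had group means of 265 to 277 CPM and Cybc1 of 18.7 to 20.9 CPM. Both are levels over all cells of the tissue, and levels in phagocytes alone were not measured.

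Of 5 transcription factors that act on subunit genes in myeloid cells, 2 rose for tau in Ch25h+/+ and 5 fell for Ch25h loss in Tau+. PU.1 (Spi1) was 8.86 ± 1.36 CPM (SD, n = 4) in Ch25h+/+ Tau+ and 4.45 ± 0.252 CPM in the matching Tau- group, and without Ch25h 3.82 ± 0.397 CPM (Tau-) and 3.75 ± 0.281 CPM (Tau+). Its log2 fold change was 0.99 for tau (adjusted p 0.000457) and -1.24 for Ch25h loss (0.000117). Irf8, a partner of PU.1 on composite sites like the one marked in the Cybb window, had 1.06 (adjusted p 0.00225) and -0.96 (0.00780). Irf1, Cebpa and Cebpb fell by 0.50, 0.86 and 0.84 on the log2 scale for Ch25h loss in Tau+. Spi1 and Irf8 kept both calls in all 16 fits with a library omitted, and Cebpa and Cebpb kept theirs, while Irf1 kept its call in 11. Irf1 and Cebpa lost theirs with GC-corrected offsets, and Irf1 also with no filter and with only the 8 libraries compared. The list medians were 0.49 and -0.86.

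Of 18 genes that act on the oxidase or on Rac, 3 rose for tau in Ch25h+/+ and 2 fell for Ch25h loss in Tau+. Dock2, the Rac exchange factor of blood cells, had log2 fold changes of 0.96 (adjusted p 0.00822) and -0.93 (0.0145). Prkcd, a kinase that phosphorylates p47phox, had 0.71 (0.0237) and -0.64 (0.0370). Pik3cg, a lipid kinase of blood cells, rose by 0.89 (0.0123) for tau. With a library omitted, Prkcd kept its tau call in 10 of 16 fits and Pik3cg in 13, and for Ch25h loss Prkcd kept its call in 12 and Dock2 in 14. Prkcd also lost the Ch25h loss call with GC-corrected offsets and with only the 8 libraries compared, a setting in which Pik3cg lost its tau call. The list medians were 0.07 and -0.17, but the genes of the list differed widely. For tau in Ch25h+/+ they ran from -0.14 to 1.15, with 12 above 0 and 6 below. For Ch25h loss in Tau+ they ran from -0.99 to 0.33, with 6 above 0 and 12 below.

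Of 21 genes that remove superoxide and peroxide, 1 rose for tau in Ch25h+/+ and 2 fell for Ch25h loss in Tau+, with medians of 0.13 and -0.10. Prdx6, a peroxiredoxin, had log2 fold changes of 0.45 (adjusted p 0.00674) and -0.46 (0.00830). Hmox1, the heme oxygenase, fell by 0.69 on the log2 scale for Ch25h loss in Tau+ (0.0366). Prdx6 kept both calls in all 16 fits with a library omitted and lost both with only the 8 libraries compared. Hmox1 kept its call in 11 of the 16, and lost it with GC-corrected offsets and with only the 8 libraries compared. Of the 9 genes of other oxidases, 1 (Noxo1) had enough counts to be tested and passed in no comparison. With the ribosomal RNA split as a term, a fit with 10 calls over all genes against 629 without the term, 0 genes of the 5 lists passed for Ch25h loss in Tau+. No gene of the lists passed for the tau effect in Ch25h-/-, for Ch25h loss in Tau- or for the interaction with edgeR.

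**Figure D5:**
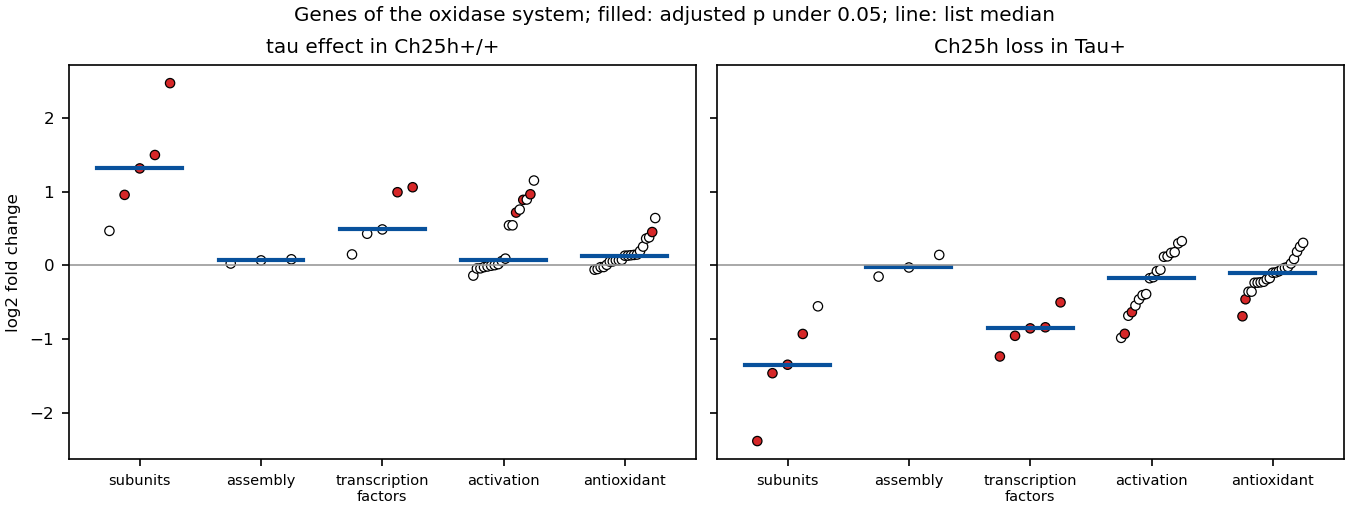
log2 fold changes (y axis) of the genes of the oxidase system by list (x axis) for tau in Ch25h+/+ mice and for Ch25h loss in Tau+ mice, 1 point per gene, filled where the adjusted p was under 0.05, with a line at the list median. The subunits have medians of 1.31 and -1.35 and the antioxidant genes of 0.13 and -0.10.

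The genes whose pattern over the 16 libraries was most like that of each member were taken from 14083 genes by Pearson correlation of log2(CPM + 0.5), a description in which group differences and shared libraries enter. For Cybb they were Cx3cr1 (0.944), Plek (0.938) and Gfap (0.937). For Cyba they were the cathepsin genes Ctsz (0.964) and Ctsa (0.961) and the complement gene C1qa (0.960). Ncf4 was most like Pld4 (0.942), Cd300c2 (0.906) and Cd68 (0.900), and Rac2 most like Parp9 (0.952), Rab29 (0.933) and Tnfrsf1b (0.911). Ncf1 had the lowest values, with Rin2 (0.759), Rin3 (0.738) and Cacna2d4 (0.729). With each library taken as its deviation from its group mean, Pld4 stayed at rank 1 for Ncf4 (0.831) and Parp9 at rank 1 for Rac2 (0.907), while the others fell in rank. For Cybb, Cx3cr1 was then at rank 6, Plek at 54 and Gfap at 327. For Cyba, Ctsz was at rank 114, Ctsa at 18 and C1qa at 89, and for Ncf1 the 3 genes were at ranks 45 to 53. For Ncf4, Cd300c2 and Cd68 were at ranks 38 and 51, and for Rac2, Rab29 and Tnfrsf1b at 4 and 18.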

How the data were processed

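RNA of mouse brain was read in 16 libraries of 4 groups. The deposited table gives raw counts per gene with no normalization by the authors, per the file headers. STAR 2.7 and the build GRCm38 (mm10) are named in the submitters' processing notes. The counting program, the annotation and the use of strand are not given in the sources used here. Of its entries, 105 repeated the symbol of an earlier one and were kept apart, and no member was among them.

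Low-count genes were removed by filterByExpr, given the 4 groups. The two-sided quasi-likelihood F test of edgeR 4.0.16 (R 4.3.3), scaled by TMM, was fitted once to the 16 libraries together, with Benjamini-Hochberg adjustment over the 17736 genes at 0.05. The standard error is the log2 fold change over the square root of F. CPM used TMM-scaled library sizes, and RPKM used the exon union of GENCODE M21. Log scales used log2(CPM + 0.5). The fit was tested on simulated data.

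The members, gene lists, marker lists and alternatives were chosen with earlier results of these data known. Named genes were the 5 members, Rac1, Cybc1, Ch25h, list genes past the threshold (at most 5 per list) and the 3 genes most like each member. Some genes of the lists are not reported here. Alternatives were a minimum mean of 50 counts, all genes with 1 count or more, size factors by RLE, DESeq2 1.42.0, limma-voom (limma 3.58.1), 1 surrogate variable (sva 3.50.0), the ribosomal RNA split at 1000 CPM as a term, offsets without the trend against GC content (loess, span 0.5), only the 8 libraries compared, and each library left out in turn.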

Additional observations from a re-analysis of the deposited data

Results flagged for a closer look

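For 7 genes (the 5 members, Rac1 and Cybc1) and 3 ratios between them, each of the 4 groups was searched for a library that stood apart from the rest of its group. Of these 40 sets of values 2 held one, where chance alone gives about 1 in 20. The level per kilobase of Cybb relative to Cyba was 0.0208 in Ch25h+/+ Tau+ replicate 1, where the nearest other library of the group was at 0.107. The ratio of Ncf4 to Ncf1 was 0.319 in Ch25h+/+ Tau- replicate 3, where the nearest other was at 0.225.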

How the results depend on the processing

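With a mean of at least 50 counts, which removed Cybb and Ncf4 from the test, 2 members passed for the tau effect in Ch25h+/+ and 2 for Ch25h loss in Tau+. For Ch25h loss in Tau+ the count was 2 with GC-corrected offsets, 2 with only the 8 libraries compared and 0 with the ribosomal RNA split (library class) as a term. Over all 17736 genes the calls for this comparison numbered 629, against 191, 119 and 10 in those 3 fits. Leaving out 1 library gave counts of 2 to 4 for both comparisons, 0 to 1 for the interaction, and 0 throughout for the tau effect in Ch25h-/- and for Ch25h loss in Tau-. The cause was not tested. The other alternatives stayed at 4 or within 1.5 times of it, and at 0.

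Signs turned in the following log2 fold changes, whose main values were between -0.17 and 0.08. For the tau effect in Ch25h-/- Rac2 was -0.00075 with RLE size factors, -0.0073 with a mean of at least 50 counts, -0.0024 with DESeq2, -0.011 with GC-corrected offsets and -0.00071 with only the 8 libraries, and Ncf1 was 0.0076 with library class. For Ch25h loss in Tau- Rac2 was -0.035 with limma-voom, -0.021 with the surrogate variable and -0.20 with library class, and Ncf1 was -0.74 with library class. Leaving out 1 library gave ranges of -0.025 to 0.26 for Ncf1, -0.19 to 0.35 for Ncf4 and -0.14 to 0.17 for Rac2 in Ch25h loss in Tau-, and ranges of -0.29 to 0.0076 for Ncf1, -0.48 to 0.22 for Ncf4 and -0.11 to 0.13 for Rac2 in the tau effect in Ch25h-/-.

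Genes of the 5 pathway lists past the threshold for the tau effect in Ch25h+/+ numbered 6, against 10 with DESeq2 and 12 with limma-voom. For Ch25h loss in Tau+ they numbered 9, against 14 with DESeq2, 14 with limma-voom, 5 with GC-corrected offsets, 5 with only the 8 libraries and 0 with library class. For Ch25h loss in Tau- they numbered 0, against 2 with DESeq2, 2 with limma-voom, 2 with only the 8 libraries and 1 with no filter, and for the interaction 0 against 1 with DESeq2. Leaving out 1 library gave 4 to 8 for tau in Ch25h+/+, 5 to 14 for Ch25h loss in Tau+ and 0 to 3 for Ch25h loss in Tau-. No paired analysis was possible because the labels carry no replicate numbers, and those used here follow the order of the records. Ncf4 and Cybb had the lowest mean counts of the members, and the effect of depth on the calls was not tested.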
